A study of Mus musculus with 33 samples.

Results

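The 10 genes described here are germline genes known to be silenced by promoter DNA methylation in cells outside the germ line, namely *Dazl*, *Mael*, *Sycp3*, *Sycp1*, *Ddx4*, *Tex101*, *Slc25a31*, *Stk31*, *Tdrd1* and *Brdt*. They were chosen by name and read at their starts in the mm9 genome, out of 22367 protein-coding genes. A gene was called marked in a list when an H3K4me3 domain lay within 2 kb of its start, an H3K27me3 or H3K9me3 domain within 5 kb of its start, an Oct4, Sox2 or Nanog summit within 20 kb of its body, or a 10 kb Uhrf1 window on its body.

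The series profiled wild type (WT) and Uhrf1 knockout (Uhrf1 KO) E14 mouse embryonic stem cells (mESC), and the embryoid bodies (EBs) derived from both at weeks 1, 2 and 3, by ChIP-seq, which sequences the DNA recovered with an antibody. EBs are aggregates in which stem cells differentiate. Histone marks were profiled in both genotypes, H3K4me3 and H3K27me3 at all 4 stages and H3K9me3 in mESC only. Oct4, Sox2 and Nanog were profiled in mESC of both genotypes and Uhrf1 in WT mESC. Of the 33 samples, 17 were WT and 16 Uhrf1 KO; 25 came with a list of regions, and the 8 inputs were not used here. Each group was 1 library. The cells were kept undifferentiated in serum and leukemia inhibitory factor on gelatin or on mouse embryonic fibroblasts, and EBs were started as hanging drops. The WT and KO stem cells were lines received from another laboratory, so the genotypes differ also as lines, and the study's methods do not say which clone was profiled. Neither DNA methylation nor RNA was measured in these lists, so the silencing for which the genes are known was not checked here.

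Since each group was a single library, the variation between replicates is unknown and no test was made. The number of genes of the 10 that a list marked is therefore set beside the share of all protein-coding genes that the same list marked. The lists differed widely in length. The number of domains ran from 11509 to 39898 for H3K4me3 and from 722 to 9488 for H3K27me3, the shortest list being that of KO mESC. The lists hold regions rather than reads, and the study's read totals were not used here, so no value is given with its depth and an absent domain means only that none was called. Of 8 stem cell markers, 7 had H3K4me3 at the start in WT and 7 in KO mESC, against 4 and 3 of 8 fibroblast markers. The same lists marked 63.2% and 57% of all genes. *Uhrf1* itself carried H3K4me3 in all 8 H3K4me3 lists, which does not check the knockout, since a deletion inside the gene need not remove the mark from its start.

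Germline genes of this kind have promoters rich in CpG that are methylated in the embryo around implantation and stay so in the soma. Uhrf1 binds hemimethylated DNA after replication and brings the maintenance methyltransferase Dnmt1 to it, and loss of either protein activates such genes in several cell types. In stem cells the same promoters are also held silent by a noncanonical Polycomb complex, which reaches DNA through the E-box binders Mga and Max and through E2f6. H3K4me3 marks active or poised promoters, whereas H3K27me3, laid down by Polycomb, and H3K9me3 mark repressed chromatin.

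The promoter sequences are shown first. Their CpG content and motifs were not used to pick the genes by name, but promoters of this class are known for both, so what follows describes these sequences and is not independent of the choice. A promoter was taken as 300 bases, 250 before and 50 after the gene start. The ratio of observed to expected CpG, which is near 1 where CpG has not been depleted, was at least 0.6 in 10 of the 10 genes (0.62 to 0.98, median 0.76), against 45.2% of all protein-coding promoters (median 0.53). *Sycp3* was lowest, with 13 CpG, and *Ddx4* highest, with 38. The GC content was 54.7 to 72.0% (median 60.3%, against 55.0% over all promoters). The E-box CACGTG was found in 8 of the 10 promoters, on both strands alike since it is a palindrome, against 7.78% of all promoters and 9 of 41 genes of a wider germline list (22%). *Dazl* and *Tex101* had none in this window. The E2F core GCGGGA, searched on both strands, was found in 5 of 10 promoters, against 24.4% of all, and all 5 of those held an E-box as well, a pair that 2.52% of all promoters held. No E-box match overlapped an E2F core match in these promoters. A match is a description of the sequence, not evidence that a factor was bound.

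Of the genes whose promoters follow, *Dazl*, *Mael* and *Sycp3* stand for the set, and *Ddx4* was added after its values were seen, because its H3K4me3 call differed between WT and KO mESC. Capitals mark the E-box and the E2F core on either strand, and the gene start is the base after the first 250. They are read 5′ to 3′ on the gene's strand from the NCBIM37 (mm9) assembly.
Dazl promoter, chr17:50432875-50433174, strand -: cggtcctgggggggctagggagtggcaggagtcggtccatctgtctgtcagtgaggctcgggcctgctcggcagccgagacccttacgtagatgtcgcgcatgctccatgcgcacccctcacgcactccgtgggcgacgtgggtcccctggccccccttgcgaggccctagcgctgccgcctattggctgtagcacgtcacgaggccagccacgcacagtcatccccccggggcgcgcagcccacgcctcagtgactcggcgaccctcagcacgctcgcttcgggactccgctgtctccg
Mael promoter, chr1:168168826-168169125, strand -: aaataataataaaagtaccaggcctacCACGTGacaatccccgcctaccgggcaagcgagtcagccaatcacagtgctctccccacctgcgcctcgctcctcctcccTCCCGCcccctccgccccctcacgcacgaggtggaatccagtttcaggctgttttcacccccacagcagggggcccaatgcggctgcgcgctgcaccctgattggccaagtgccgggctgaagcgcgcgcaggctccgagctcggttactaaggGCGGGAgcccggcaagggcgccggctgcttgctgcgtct
Sycp3 promoter, chr10:87922064-87922363, strand +: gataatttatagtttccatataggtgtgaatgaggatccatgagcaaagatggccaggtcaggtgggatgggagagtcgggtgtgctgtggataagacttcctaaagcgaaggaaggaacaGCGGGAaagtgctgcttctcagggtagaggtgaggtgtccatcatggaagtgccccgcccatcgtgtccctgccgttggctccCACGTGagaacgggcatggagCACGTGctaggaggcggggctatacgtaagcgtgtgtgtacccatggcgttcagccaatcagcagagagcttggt
Ddx4 promoter, chr13:113442469-113442768, strand -: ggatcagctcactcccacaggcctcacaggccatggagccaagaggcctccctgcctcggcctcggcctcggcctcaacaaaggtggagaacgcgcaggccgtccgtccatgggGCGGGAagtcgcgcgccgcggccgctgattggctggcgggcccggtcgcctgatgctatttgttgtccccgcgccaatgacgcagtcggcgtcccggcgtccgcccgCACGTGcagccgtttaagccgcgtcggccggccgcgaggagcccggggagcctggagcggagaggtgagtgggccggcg

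*Sycp3* held E-boxes whose first bases lay 46 and 25 bp upstream of its start, *Ddx4* 1 at 29 bp upstream and *Mael* 1 at 223 bp upstream. The other 5 genes with an E-box had it 11 bp (*Tdrd1*), 43 bp (*Brdt*), 77 bp (*Slc25a31*), 94 bp (*Sycp1*) and 120 bp (*Stk31*) upstream. Their 40 bases around the E-box, which is in capitals, are shown so that the flanks can be compared.
Sycp1 E-box, chr3:102740095-102740134, strand -: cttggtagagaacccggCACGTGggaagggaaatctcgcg
Slc25a31 E-box, chr3:40512683-40512722, strand +: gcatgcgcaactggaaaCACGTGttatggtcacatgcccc
Stk31 E-box, chr6:49345466-49345505, strand +: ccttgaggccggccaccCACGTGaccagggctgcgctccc
Tdrd1 E-box, chr19:56900671-56900710, strand +: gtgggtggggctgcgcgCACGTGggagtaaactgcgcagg
Brdt E-box, chr5:107760118-107760157, strand +: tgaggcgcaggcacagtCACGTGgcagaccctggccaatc

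**Figure D1:**
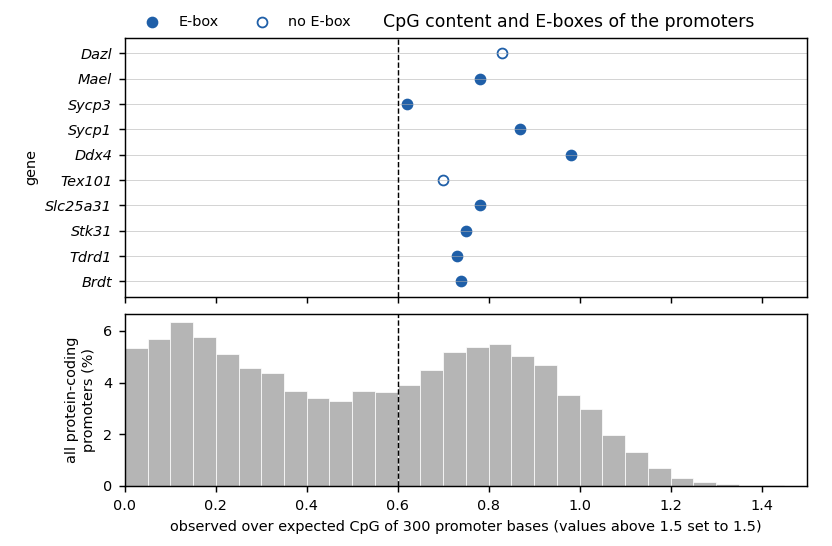
Observed over expected CpG (x axis, no unit) of the 300-base promoters of the 10 germline genes (top; filled where an E-box was found) and its distribution over all 22367 protein-coding promoters (bottom, % of promoters). All 10 genes lie to the right of the dashed line at 0.6, from 0.62 for Sycp3 to 0.98 for Ddx4, and only Dazl and Tex101 are open.

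H3K4me3 was scarce at the 10 starts at every stage. In WT mESC 4 of 10 genes were marked (*Dazl*, *Sycp3*, *Ddx4* and *Tdrd1*), where the list marked 63.2% of all genes, and in KO mESC 2 of 10 (*Sycp3* and *Tdrd1*), against 57%. *Dazl* and *Ddx4* were thus marked in WT only, as were 7.6% of all genes, and none was marked in KO only, as were 1.38%. With the WT list shortened by score to 11509 domains, the number in the KO list, *Ddx4* alone was in WT only, beside 5.59% of all genes. Of the 10, the 6 genes *Mael*, *Sycp1*, *Tex101*, *Slc25a31*, *Stk31* and *Brdt*, had no H3K4me3 domain within 2 kb of the gene start in any of the 8 lists, a state held by 27% of all genes and by 11 of the 41 wider germline genes. None of the 10 gene starts was marked in all 8 lists, as 50.3% of all gene starts were. Both statements turn on the start used for *Brdt*. Counting any annotated transcript start, *Brdt* was marked in all 8 lists, as were 52.4% of all genes, and 5 of the 10 were marked in none (25.6%).

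In EBs the H3K4me3 count stayed low in both genotypes. At week 1, 2 of 10 genes were marked in WT (62.1% of all genes) and 0 of 10 in KO (57%). *Dazl* and *Tdrd1* were marked in WT only, a difference seen in 6.23% of all genes, and none in KO only (1.18%). At week 2, 2 of 10 were marked in WT (65.7%) and 2 of 10 in KO (64.5%), with *Tdrd1* in WT only (3.51%) and *Sycp3* in KO only (2.27%). By week 3 the same 3 genes, *Dazl*, *Sycp3* and *Tdrd1*, were marked in WT (66.2%) and in KO (65.8%), and 0 of 10 were marked in WT only (2.47%) or in KO only (2.04%).

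**Figure D2:**
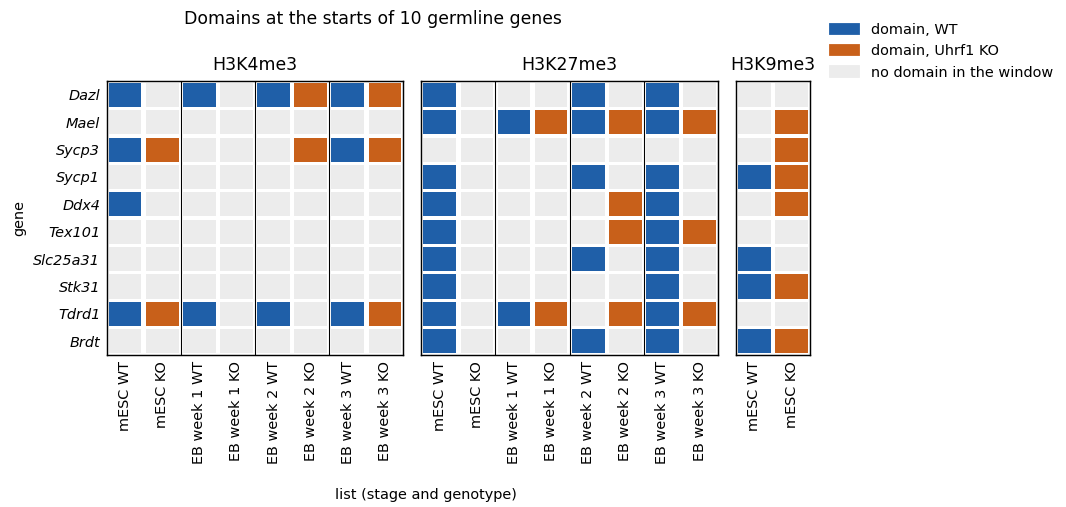
Calls at the starts of the 10 germline genes (rows) in each histone list (columns, by stage and genotype); a coloured cell is a domain within 2 kb (H3K4me3) or 5 kb (H3K27me3, H3K9me3) of the start, blue in WT and orange in Uhrf1 KO. At the gene starts used, H3K4me3 is confined to 4 rows, while H3K27me3 fills 9 of 10 rows in WT mESC and in WT week 3 and no row in KO mESC.

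*Dazl*, which encodes an RNA-binding regulator of translation in germ cells, carried a small H3K4me3 domain that never reached its start. In WT mESC it was a single 1300 bp bin at chr17:50430901-50432200, 724 to 2023 bp downstream of the start and inside the gene, with a mean count of 19.0 reads per bin, higher than 81.6% of the domains of that list. The nearest domain in KO mESC lay 82.6 kb downstream of the start and that of KO week 1 lay 83.0 kb downstream. In all 6 lists with a domain, one of 0.8 to 2.0 kb began 724 or 924 bp downstream. *Dazl* was therefore marked in WT at 4 of 4 stages and in KO at weeks 2 and 3. These calls rest on short domains of low score. With lists of equal length *Dazl* was no longer marked in WT mESC and was marked in KO only at week 2 (with *Sycp3*, beside 2.85% of all genes), and with domains at or above the median score it was marked in none. No other protein-coding start lay within 54.2 kb of it.

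*Ddx4*, the Vasa RNA helicase of germ cells, was marked in WT mESC and in no other list. The WT domain was 15.6 kb long, chr13:113440601-113456200, with a mean count of 15.7 reads per bin, and it also covered the start of *Slc38a9*, an amino acid transporter gene that begins 8.47 kb upstream on the other strand. In KO mESC a domain of 9.1 kb covered the *Slc38a9* start and ended 3283 bp short of *Ddx4*. In the 6 EB lists the domain over *Slc38a9* ended 4683 to 7533 bp upstream of *Ddx4*. The *Ddx4* call in WT mESC was therefore the edge of a domain shared with its neighbour, and a bin was 1300 bp long in both mESC lists.

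*Tdrd1*, a Tudor protein of the pathway that makes small RNAs against transposons in germ cells, also lay at the edge of a neighbour's domain. The domain nearest to it covered the start of *A630007B06Rik*, 4.02 kb upstream, in all 8 lists. It reached over the *Tdrd1* start by 1601 bp in WT mESC and by 301 bp in KO mESC. In WT EBs it stopped 1099 bp short of the start at week 1 and 299 bp short at weeks 2 and 3, and in KO EBs 2599, 2949 and 1899 bp short at weeks 1, 2 and 3. At each of the 4 stages the WT domain came nearer to or further past the *Tdrd1* start than the KO domain. Domain ends are set by bins, which were 1300 bp long in both mESC lists and 350 or 400 bp in the EB lists. The calls at weeks 1 and 2 turned on the 2 kb limit.

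*Sycp3*, which encodes a protein of the lateral elements that pair meiotic chromosomes, was the member with H3K4me3 of its own over the start. In WT mESC the domain was 11.7 kb long (chr10:87920301-87932000) with a mean count of 9.55 reads per bin, and in KO mESC 9.1 kb with 7.49 reads per bin, lower than most domains of either list (16.8% and 14.7% of domains had lower counts). No other protein-coding start lay within 44.5 kb, although *Chpt1*, on the other strand, runs over the *Sycp3* start. At week 1 the nearest domain lay 41.3 kb (WT) and 41.4 kb (KO) downstream, over the start of *Chpt1*. At week 2 the WT list still had none nearer than 40.1 kb, whereas the KO list had a 1.4 kb domain 1264 bp upstream. At week 3 a domain lay 487 bp downstream in WT and across the start in KO. *Sycp3* was thus marked in both mESC lists, in neither week 1 list, and again in both week 3 lists.

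**Figure D3:**
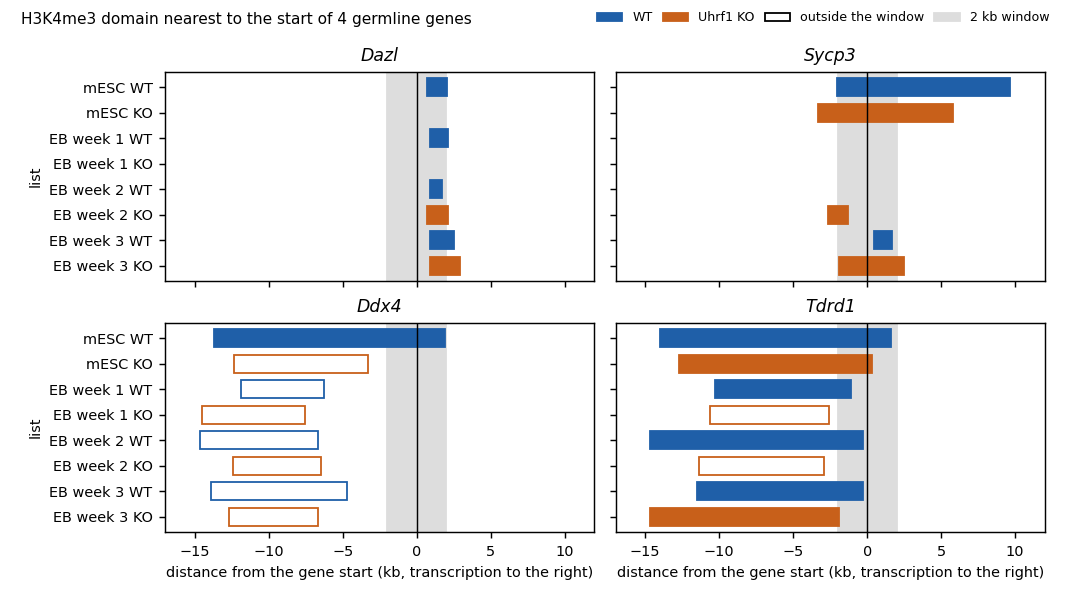
Extent of the H3K4me3 domain nearest to the start of Dazl, Sycp3, Ddx4 and Tdrd1 in each list (x axis, kb from the gene start with transcription to the right; filled bars lie within the grey 2 kb window, open bars outside it; an empty line means that the nearest domain lies beyond the axis). The bars of Ddx4 and Tdrd1 come from upstream, from the starts of Slc38a9 and A630007B06Rik, those of Dazl lie just downstream, and those of Sycp3 cover the start in both mESC lists.

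At the 6 genes without H3K4me3 the nearest domain lay over 13 kb from the gene start in every list. For *Mael*, which protects germ cells from transposons, it was 13.9 to 106 kb away over the 8 lists. For *Sycp1*, a protein of the transverse filaments between paired meiotic chromosomes, it was 25.6 to 57.8 kb away. *Tex101*, a surface glycoprotein of male germ cells, had none nearer than 20.3 kb, and *Slc25a31*, the ADP/ATP carrier of spermatocytes, none nearer than 13977 bp. For *Stk31*, a Tudor kinase of germ cells, the nearest was 16.8 kb away, and for *Brdt*, the testis bromodomain protein that reads acetylated histones, 21.8 kb. *Brdt* differed from the other 5 in having H3K4me3 at a further annotated transcript start, 28.7 kb downstream and inside the gene. A domain covered that start in all 8 lists, 3.2 to 7.8 kb long with 9.08 to 18.6 reads per bin, in both genotypes at each stage, while the gene start and the starts 16 and 33 bp from it had none.

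H3K27me3 was called at nearly all of the 10 starts in WT mESC and at none of them in KO mESC. In WT mESC 9 of 10 genes were marked, all but *Sycp3*, where the list marked 34.9% of all genes. In KO mESC 0 of 10 were marked, against 7.57%. All 9 were therefore marked in WT only, a difference seen in 29.5% of all genes, and none in KO only (2.17%). Only a gene marked in WT can be in WT only, and 6592 of the 7800 genes that the WT list marked were. The 9 WT domains covered the start itself and were broad, from 36.0 kb at *Dazl* to 826 kb at *Mael* (median 113 kb), much as over all genes marked in that list (median 124 kb). Their mean counts ran from 3.92 reads per bin at *Stk31* to 6.9 at *Slc25a31*. The *Dazl* and *Stk31* domains (36.0 and 220 kb) covered no other protein-coding start, those of *Sycp1*, *Ddx4*, *Tex101*, *Slc25a31* and *Tdrd1* covered 1 each, that of *Brdt* 2 and that of *Mael* 8. In KO mESC the nearest H3K27me3 domain was 245 kb away at *Tex101*, the closest case, and 10453 kb away at *Slc25a31*, the farthest.

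The KO mESC list of H3K27me3 was short, so the absence of the mark there is limited by the list. It held 722 domains with a median mean count of 0.914 reads per 1500 bp bin, against 8161 domains and 4.93 reads per 1800 bp bin in WT, and the authors normalized ChIP-seq reads by each library's mapped total, but whether the deposited counts per bin were treated so is unclear. When the WT list was shortened to its 722 domains of highest score, 1 of the 10 genes (*Mael*) was marked in WT only, beside 7.33% of all genes. The score increases with domain length, so this cut keeps long domains, such as that of *Mael* (826 kb). The part of list length in the difference was not tested further.

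At week 1 the counts of starts with H3K27me3 were near the share of all genes in both genotypes. The lists covered 101 Mb in WT and 180 Mb in KO, against 960 and 84.1 Mb in WT and KO mESC. *Mael* and *Tdrd1* were marked in WT (2 of 10, against 20.5% of all genes) and the same 2 in KO (21.1%), so that 0 of 10 differed in either direction (WT only 5.67%, KO only 6.29%). At *Mael* the domain lay 4376 bp upstream in WT and 3326 bp upstream in KO, both near the 5 kb limit. At *Tdrd1* it covered the start in WT and lay 902 bp downstream in KO. The nearest domain to *Dazl* was 8424 bp downstream in WT and 1109 kb downstream in KO.

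At week 3 more of the 10 starts carried H3K27me3 in WT EBs than in KO EBs. The week 2 counts, 5 in WT and 4 in KO, became 3 and 4 with domains over the start. They did so too with domains at or above the median score. At week 2, 5 of 10 were marked in WT (29.8% of all genes) and 4 of 10 in KO (24.1%), but only *Mael* in both. *Dazl*, *Sycp1*, *Slc25a31* and *Brdt* were marked in WT only (15.3%), and *Ddx4*, *Tex101* and *Tdrd1* in KO only (9.55%). At week 3, 9 of 10 were marked in WT (33.2%), the same 9 as in WT mESC, and 3 of 10 in KO (19.5%), namely *Mael*, *Tex101* and *Tdrd1*. The other 6 were marked in WT only (16.6%) and none in KO only (2.88%). Of the 7429 genes that the WT list marked, 3719 were in WT only. Among those 6 the nearest KO domain was 6798 bp downstream at *Stk31*, just outside the limit, and 46.1 to 2370 kb away at the others. The WT week 3 list was the longer, with 9488 domains against 3722. With it shortened to that number by score, *Dazl*, *Sycp1*, *Ddx4* and *Stk31* remained in WT only (8.21% of all genes) and *Tex101* became KO only (6.41%).

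**Figure D4:**
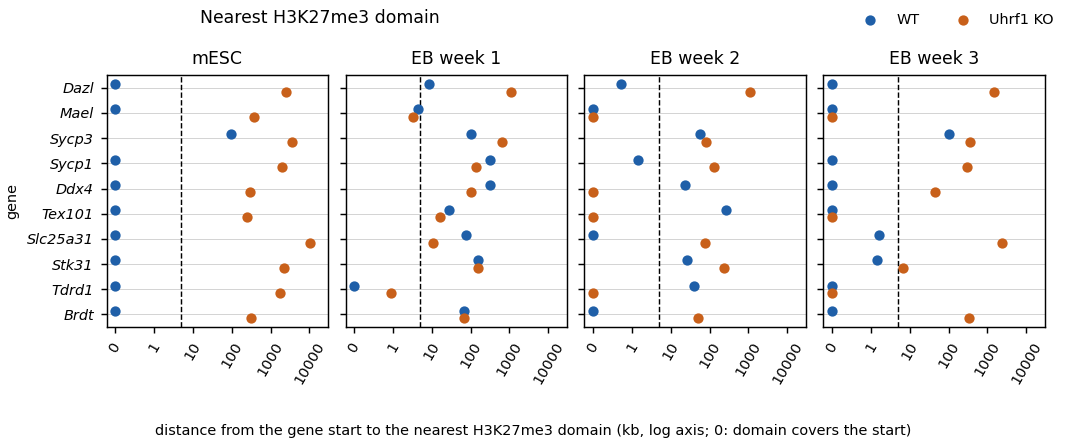
Distance from each gene start to the nearest H3K27me3 domain (x axis, kb, log scale with 0 drawn at its left end) in WT (blue) and Uhrf1 KO (orange) at each stage; the dashed line is the 5 kb limit. In mESC the 9 WT points at 0 face KO points from 245 kb at Tex101 to 10453 kb at Slc25a31, and at week 2 the genotypes cross over, with Ddx4, Tex101 and Tdrd1 at 0 in KO.

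*Mael* and *Sycp3* were the extremes for H3K27me3. *Mael* was marked in 7 of 8 lists, the exception being KO mESC, with domains of 826 kb in WT mESC and 166, 223, 221 and 164 kb in WT and KO at week 2 and WT and KO at week 3. In each of the 7 lists the domain also covered the start of *Ildr2*, 15.4 kb upstream of *Mael*. *Sycp3* was marked in 0 of 8, and its nearest domain was 58.1 kb away at the closest, in WT week 2. *Tdrd1* was marked in 6 lists and *Stk31* in 2, both of them WT (mESC and week 3). The other 6 genes were marked in 3 or 4 lists.

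Read together, the H3K4me3 and H3K27me3 calls put *Dazl*, *Ddx4* and *Tdrd1* in the bivalent class in WT mESC, with both marks called within their windows. *Sycp3* was in the active class, with H3K4me3 alone. The other 6 were called for H3K27me3 alone. A call need not cover the start. The *Dazl* H3K4me3 domain lay downstream of its start, and those of *Ddx4* and *Tdrd1* were edges of domains over a neighbour's start. Of all genes 18.3% were bivalent, 44.8% active, 16.5% held H3K27me3 alone and 20.3% neither. In KO mESC 8 of the 10 were called for neither mark, as were 39.8% of all genes. *Sycp3* and *Tdrd1* were called for H3K4me3 alone, *Tdrd1* at the edge of its neighbour's domain. At week 3 none of the 10 was without a mark in WT, and 5 were in KO (*Sycp1*, *Ddx4*, *Slc25a31*, *Stk31* and *Brdt*), against 20.1% and 26.0% of all genes.

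**Figure D5:**
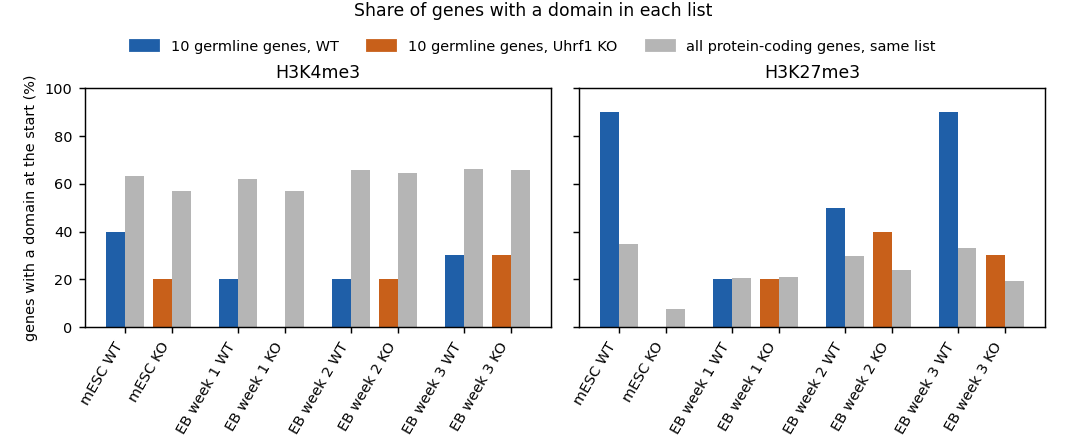
Share of the 10 germline genes (blue, WT; orange, Uhrf1 KO) and of all protein-coding genes (grey) with an H3K4me3 domain (left) or an H3K27me3 domain (right) at the start in each list (y axis, %). The coloured bars are below the grey ones in all 8 H3K4me3 lists and well above them for H3K27me3 in WT mESC and WT week 3, where 9 of 10 genes are marked.

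H3K9me3, measured in mESC only, was called at 4 of 10 starts in WT (29.7% of all genes) and at 6 of 10 in KO (40.1%). *Sycp1*, *Stk31* and *Brdt* were marked in both genotypes. *Slc25a31* was marked in WT only (7.46%), by a domain of 45.0 kb across its start, and its nearest KO domain was 50.2 kb downstream. *Mael*, *Sycp3* and *Ddx4* were marked in KO only (17.9%). The nearest WT domain was 12.9 kb from *Mael*, 11.3 kb from *Sycp3* and 35.3 kb from *Ddx4*. The KO list was made of fewer and longer domains, 3118 with a median length of 140.4 kb against 11285 with a median of 37.8 kb, and the KO domains that covered *Mael*, *Sycp3* and *Ddx4* were 833, 126 and 2781 kb long. *Dazl*, *Tex101* and *Tdrd1* were marked in neither. The share of the WT to KO difference that the domain length carries was not tested.

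Over the 18 histone lists *Sycp1* and *Brdt* had the same calls as each other, and 298 protein-coding genes in all shared that pattern. The pattern of *Ddx4* was shared by no other gene, those of *Dazl* and *Tdrd1* each by 2 genes in all, and that of *Mael* by 6. The other 4 patterns were shared by 11 (*Sycp3*), 21 (*Tex101*), 22 (*Stk31*) and 46 genes (*Slc25a31*).

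In WT mESC Oct4 had a summit at 2 of 10 genes (*Sycp1* and *Stk31*), against 30.1% of all genes, Sox2 at 1 of 10 (18.8%) and Nanog at 1 of 10 (7.51%), both at *Stk31*. Each count is within about 1 gene of the share of all genes. Factor and Uhrf1 calls take in the whole gene body, and *Sycp1* (118 kb) and *Stk31* (73.9 kb) were the longest of the 10 genes. The part of gene length in these calls was not tested. With 50 kb in place of 20 kb, Oct4 was at 6 of 10, against 47.4%. In KO mESC Oct4 was at 0 of 10 (1.1%), Sox2 at 7 of 10 (57.7%) and Nanog at 1 of 10 (27.4%), again *Stk31*. There were 6 genes with Sox2 in KO only (*Mael*, *Sycp1*, *Ddx4*, *Slc25a31*, *Tdrd1* and *Brdt*), a difference seen in 39.7% of all genes, and 0 in WT only (0.823%). The lists moved the same way, Oct4 from 12898 summits in WT to 576 in KO and Sox2 from 5190 to 20755, and the part of that in these counts was not tested.

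Sox2 summits stood close to the start of 3 genes in KO mESC. A summit lay 93 bp upstream of *Mael* (15 reads at the summit), 142 bp downstream of the *Ddx4* start in an intron (11 reads) and 125 bp upstream of *Stk31* (16 reads). In WT mESC *Stk31* alone had one, 169 bp upstream with 19 reads. Within 200 bp of a start, a distance chosen after these values were seen, KO Sox2 summits were found at 14% of all genes and WT ones at 1.7%. The 3 KO summits were low, since 30.2%, 3.27% and 37.4% of the summits in that list were lower still. The other 4 KO genes had their Sox2 summit away from the start, in an intron of *Sycp1* 87.2 kb downstream of the start, or past the gene end, 4.35 kb past *Tdrd1*, 16.7 kb past *Brdt* and 19.8 kb past *Slc25a31*.

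*Stk31* was the gene of the 10 at which all 4 proteins were found. In WT mESC an intronic site 17.6 kb downstream of the start held Oct4 (30 reads), Sox2 (22 reads) and Nanog (13 reads) within 16 bp of each other. In KO mESC Sox2 (29 reads) and Nanog (10 reads) were found there and Oct4 was not, and a further Sox2 summit (12 reads) lay 20.7 kb downstream of the start. The Uhrf1 window of the 10 genes was in an intron of *Stk31* as well, chr6:49380001-49390000, 1 of 10 genes against 9.84% of all genes. It did not hold the joint site. A further window, chr6:49330001-49340000, ended 5603 bp upstream of the *Stk31* start, outside the gene body. The nearest window to any of the other 9 was 28.5 kb from the body of *Ddx4*. *Sycp1*, the other gene with Oct4, had WT summits in introns 87.3 and 103 kb downstream of its start (45 and 34 reads), and the KO Sox2 summit (29 reads) lay 43 bp from the first of them.

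Just outside the 20 kb limit, 20.1 kb past the end of *Ddx4* and inside *Il31ra*, lay a stronger joint site than any within it. In WT mESC it held Oct4 (106 reads), Sox2 (117 reads) and Nanog (45 reads), and in KO mESC Sox2 (90 reads) and Nanog (23 reads) but no Oct4. Both joint sites thus had Sox2 and Nanog summits in the KO lists and an Oct4 summit in the WT list only. The Oct4 list held 12898 summits in WT and 576 in KO, and the share of all joint sites that differed this way was not counted. In KO mESC, Sox2 (22 reads) and Nanog (18 reads) summits also lay 42.6 kb upstream of *Stk31*. The 101 bases around each WT site are shown on the plus strand to compare their letters. The octamer ATGCAAAT, searched on both strands, would be in capitals. Neither window held it, while 8.82% of the 12697 such windows around WT Oct4 summits did.
Stk31 intron site, chr6:49363120-49363220, strand +: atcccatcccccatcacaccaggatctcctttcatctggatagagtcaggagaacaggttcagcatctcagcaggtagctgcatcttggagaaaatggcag
Site past Ddx4, chr13:113368388-113368488, strand +: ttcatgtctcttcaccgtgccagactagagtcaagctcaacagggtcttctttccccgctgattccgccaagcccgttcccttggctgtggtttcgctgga

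A wider germline list, of 41 protein-coding genes for small RNA factors, meiotic chromosome proteins and other germ cell genes, was counted for comparison. In WT and KO mESC 21 and 20 of 41 had H3K4me3, against 63.2% and 57% of all genes. For H3K27me3 the counts were 19 and 4 of 41, against 34.9% and 7.57%. Among small RNA factors 4 of 13 had H3K4me3 in WT and 4 in KO, among meiotic chromosome genes 7 and 9 of 16, and among the others 10 and 7 of 12. In mESC, H3K4me3 was called in KO only at *Tdrd7* (195 bp from the start), *Hormad2* (over the start) and *Smc1b* (887 bp), and in WT only at *Tdrd9*, *Tex19.1*, *Dpep3* and *Dmrtb1*. Those 3 and 4 of 41 stand beside 1.38% and 7.6% of all genes, and the counts at the 10 genes were 0 and 2. By week 3, 7 of the 41 were marked in KO only (2.04% of all genes) and 0 in WT only (2.47%), where the 10 genes differed at none. Of their promoters, 19 of 41 (46.3%) had an observed over expected CpG of at least 0.6, against 45.2% of all protein-coding promoters.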

How the data were processed

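ChIP-seq of WT and Uhrf1 KO mESC and EBs was used as deposited. Reads were aligned by the authors to mm9 with Bowtie2 2.1.0 (1 alignment per read), and each library was called separately. For histone marks the authors ran RSEG against input; the deposited signal of a domain is its average number of reads per bin, and its deposited score increases with its length in bins. Bins were 350 to 1800 bp long, so counts were ranked within a list only. Factor summits are from MACS, with the reads piled up at each summit as the deposited signal. Uhrf1 windows of 10 kb were deposited with start and end only. The study's methods name the versions of RSEG and MACS, which are not repeated here. The study's read totals were not used.

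BED starts were shifted to count from 1. Checked against NCBIM37, regions stayed inside their chromosome in all 530 combinations of list and chromosome, and 39 further combinations lay on sequence without a counterpart there. Gene starts were the 5′ ends of GENCODE vM1 gene records, and *Tdrd5* of the wider list, 1 of 42 genes, is not protein-coding there and was not counted. Distances to starts were computed with Python 3.11.15, numpy 2.4.6, pandas 2.3.3 and scipy 1.17.1 and drawn with matplotlib 3.10.9, and the distance function was tested on simulated data. Samples were grouped by the labels' genotype, stage and antibody. With 1 library per group no test was run and no p-value is given.

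All 10 members are named. Of the wider list, genes are named where their H3K4me3 call differs between WT and KO mESC. Promoters are printed for members whose call differs there, or, as here with fewer than 3, for *Dazl*, *Mael* and *Sycp3*, and *Ddx4* was added. Likeness is the number of genes with the same 18 histone calls. The members and lists were chosen with earlier results of these data known. The alternatives were other distances, other transcript starts, domains or summits above the median, lists of equal length (the same number of domains) and autosomal genes only. The 200 bp distance for summits was added after seeing the data.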

Additional observations from a re-analysis of the deposited data

Results flagged for a closer look

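The H3K27me3 calls of 3 genes went opposite ways between stages, in WT only in mESC (as 29.5% of all genes) and in KO only at week 2 (9.55%). At week 2 the KO domain covered the start of each of them, while the nearest WT domain lay 22.7 kb from *Ddx4*, 258 kb from *Tex101* and 38.7 kb from *Tdrd1*. *Ddx4* was marked in WT only again at week 3, and *Tex101* and *Tdrd1* in both genotypes. With the WT mESC list shortened to its 722 domains of highest score, the number in the KO list, none of the 3 was marked. The mESC side of the reversal was then gone for all 3. The score increases with domain length, so this cut keeps long domains and does not make the lists alike. The WT domains of *Ddx4*, *Tex101* and *Tdrd1* were 113, 46.8 and 61.2 kb long. At week 3 with lists of equal length *Ddx4* stayed in WT only and *Tex101* was marked in KO only. Each group was 1 library, and these differences were not tested.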

How the results depend on the processing

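Several alternatives moved the number of members called, of 10, by over 1.5 times. When H3K4me3 domains had to cover the start, the count became 0 in WT at weeks 1, 2 and 3, 0 in KO at week 2 and 1 in KO at week 3. With domains at or above the median score it became 1 in KO mESC, 1 in WT at weeks 1, 2 and 3 and 0 in KO at week 2. A 5 kb window gave 1 in KO at week 1 (*Tdrd1*), as did any annotated transcript start (1, *Brdt*), which added *Brdt* in each of the 8 lists. When H3K27me3 domains had to cover the start, the count became 1 in WT and 0 in KO at week 1. At week 2 it became 3 in WT, below the 4 of KO, which did not move. At or above the median score it became 1 in WT and 1 in KO at week 1. At week 2 it again became 3 in WT, and KO stayed at 4. The 0 of KO mESC could not rise when domains had to cover the start or reach the median score. A 10 kb window left it at 0, and the nearest domain lay 245 kb away. H3K9me3 over the start gave 2 in WT mESC. Lists of equal length hold the same number of domains, but need not cover the same amount of genome. With them, H3K4me3 in WT only in mESC became 1 (*Ddx4*) and in KO only at week 2 became 2 (*Dazl* and *Sycp3*). H3K27me3 in WT only in mESC became 1 (*Mael*) and in KO only at week 3 became 1 (*Tex101*). Summits within 50 kb gave 6 members for WT Oct4, 2 for WT Sox2 and 2 for Nanog in WT and in KO. Summits at or above the median height gave 1 for WT Oct4, 3 for KO Sox2 and 0 for Nanog in WT and in KO. Within 200 bp of the start there were 0 for WT Oct4, 3 for KO Sox2 and 0 for Nanog in WT and in KO. No Uhrf1 window covered a start (0). In each case the alternative itself changes which regions count. Autosomal genes alone (21418) moved no share of all genes by more than 1.8 percentage points. No paired analysis was possible because each group held 1 library and the labels give no replicate numbers.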
